A study of Mus musculus with 24 samples.

Results

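Huntingtin, the protein altered in Huntington disease, was examined at the RNA level in mouse striatum together with the genes of 9 proteins that bind it or work in the same signaling and membrane trafficking steps. The 10 genes were taken by name from the deposited tables (Htt, Hap1, Hip1, Hip1r, Pacsin1, Trip10, Rasd2, Rasd1, Rasgrp1 and Rasgrp2), and all 10 were found among the 24340 genes that the tables share. RNA-seq of striatum had been performed on 24 libraries in 4 groups. WT-vehicle (n = 5) and WT-RGFP109 (n = 6) were wild type littermates of the R6/1 line, and R6/1-vehicle (n = 6) and R6/1-RGFP109 (n = 7) carried, on 1 chromosome copy, a transgene with exon 1 of human HTT and an expanded CAG tract. All mice were male, on a C57BL/6J background, and kept both copies of mouse Htt. RGFP109, an inhibitor of the histone deacetylases HDAC1 and HDAC3, was injected into the abdomen at 30 mg/kg over 3 weeks, on 5 days of each, from an age of 11 to 14 weeks, and the vehicle groups received dimethyl sulfoxide in saline. Tissue was taken 18 h after the last injection at 14 to 17 weeks. The R6/1 groups model a fragment of human huntingtin added to normal mouse huntingtin, not an expanded repeat in the mouse gene.

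The files give 1 FPKM value (fragments per kilobase of transcript scaled to the mapped fragments of the library) per gene and group, pooled over the libraries of the group by the authors. The spread between mice is not in these values, so no difference below has a test, an error or a replicate check, and the depth of the libraries is unknown. Differences are given as log2 ratios after adding 0.1 FPKM, and a gene was counted as past the fold above 0.5 or under -0.5. Each group stands in 3 tables, and after 1 scaling factor per table (0.965 to 1.03) its values for the 10 genes differed by at most 0.0031 on the log2 scale between tables. The 3 values are therefore 1 measurement, and their mean on the common scale is called the level. The genotype comparisons in vehicle mice and in RGFP109 mice use different mice throughout.

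Huntingtin is a large scaffold protein found in all cells, which links vesicles to motor proteins and takes part in endocytosis and transcription. Hap1 (huntingtin-associated protein 1) joins it to dynein and kinesin, Hip1 and Hip1r bind clathrin and actin at endocytic pits, and Pacsin1 and Trip10 are F-BAR proteins that bend membranes and contact the actin machinery. Rasd2, also called Rhes, is a small G protein enriched in the striatum that binds mutant huntingtin, and Rasd1 (Dexras1) is its closest relative. Rasgrp1 and Rasgrp2 are the calcium and diacylglycerol regulated exchange factors CalDAG-GEFII and CalDAG-GEFI, which load Ras and Rap proteins with GTP. Striatal projection neurons, which receive cortical and dopamine input, are the cells lost earliest in Huntington disease.

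The Htt row measured the mouse gene, on chr5:34761740-34912534 of mm10. The coding part of its first exon is shown because this is the stretch whose human counterpart the R6/1 transgene carries. The sequence runs from the start codon to the end of exon 1 at chr5:34761907-34762109 on the plus strand (GENCODE M21 transcript). Capitals mark the longest unbroken run of glutamine codons, and further glutamine codons after this tract are in lower case.
Htt exon 1 coding part: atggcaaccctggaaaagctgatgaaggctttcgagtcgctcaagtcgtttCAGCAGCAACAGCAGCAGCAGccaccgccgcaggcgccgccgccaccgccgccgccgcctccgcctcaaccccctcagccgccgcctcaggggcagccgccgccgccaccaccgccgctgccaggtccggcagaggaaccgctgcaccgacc
The mouse tract at 34761958 to 34761978 holds 7 glutamine codons, 6 of them CAG and 1 CAA. The 203 bases make up 1.54% of the 13215-base transcript. Whether reads of the human transgene were aligned to this exon was not tested.

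Promoters are shown for Htt, whose level differed little between the groups, and for Rasd2 and Rasgrp2, whose levels differed most by genotype. Each is the 250 bases before a RefSeq start (GRCm38.p6), 5′ to 3′ on the strand of the gene, at chr5:34761490-34761739 for Htt, chr8:75213694-75213943 for Rasd2 and chr19:6399625-6399874 for the first of 2 Rasgrp2 starts, which lies before the deposited Rasgrp2 locus, all on the plus strand. Capitals mark matches on either strand to TGACGTCA (the cAMP response element), GGGCGG (the GC box), CCAAT or TATAAA, and overlapping matches were counted separately.
Htt promoter: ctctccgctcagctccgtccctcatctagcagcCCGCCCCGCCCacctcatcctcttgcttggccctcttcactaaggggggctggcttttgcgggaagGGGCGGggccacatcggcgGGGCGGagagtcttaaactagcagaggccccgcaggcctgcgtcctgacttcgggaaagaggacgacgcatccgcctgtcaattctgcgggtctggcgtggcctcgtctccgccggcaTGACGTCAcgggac
Rasd2 promoter: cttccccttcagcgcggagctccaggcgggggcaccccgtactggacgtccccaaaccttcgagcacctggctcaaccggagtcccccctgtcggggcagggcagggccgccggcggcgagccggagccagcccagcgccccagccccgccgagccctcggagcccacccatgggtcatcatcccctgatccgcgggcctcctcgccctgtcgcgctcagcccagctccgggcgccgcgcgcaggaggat
Rasgrp2 promoter: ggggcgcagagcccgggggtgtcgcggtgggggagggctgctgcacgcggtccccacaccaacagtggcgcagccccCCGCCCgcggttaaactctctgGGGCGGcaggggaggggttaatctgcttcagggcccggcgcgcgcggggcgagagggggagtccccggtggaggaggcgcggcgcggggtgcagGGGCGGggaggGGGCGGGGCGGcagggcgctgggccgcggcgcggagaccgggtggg
The Htt window held 1 TGACGTCA and 4 GGGCGG. Of 32851 promoters, 1.55% held at least 1 TGACGTCA and 32.7% at least 1 GGGCGG, and the share with 4 was not computed. The Rasd2 window held none of the 4 motifs (CCAAT is in 33.8% of promoters and TATAAA in 12.4%), at a GC content of 75.2% against a median of 52.4%. The Rasgrp2 window, at 79.6% GC, held 5 GGGCGG, of which a pair overlap. The window of the second Rasgrp2 start, chr19:6401455-6401704, lies inside the deposited locus and held 2 GGGCGG at 67.2% GC. Entries, 12 in all, were found for 9 of the 10 genes, not for Rasd1. Of the 9 genes, 7 held GGGCGG in at least 1 entry, 1 held TGACGTCA, 1 held CCAAT and 0 held TATAAA. The shares of promoters above count entries, not genes. These are letter matches and carry no measure of binding.

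The levels of the 10 genes spanned a wide range, and FPKM is scaled by length, so genes can be set side by side. In the WT-vehicle group, Rasd2 had the highest level, at 246 FPKM, and ranked 229 of all 24340 genes. Rasgrp1 (117 FPKM), Hap1 (106 FPKM), Pacsin1 (101 FPKM) and Rasgrp2 (95.9 FPKM) followed, with ranks from 663 to 872. Hip1r (31.1 FPKM), Htt (16.9 FPKM) and Hip1 (11.6 FPKM) lay lower, and Rasd1 (2.85 FPKM) and Trip10 (2.46 FPKM) lay near the middle of the list of all genes. No spread is known, so which neighbors in this order differ cannot be said.

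**Figure D1:**
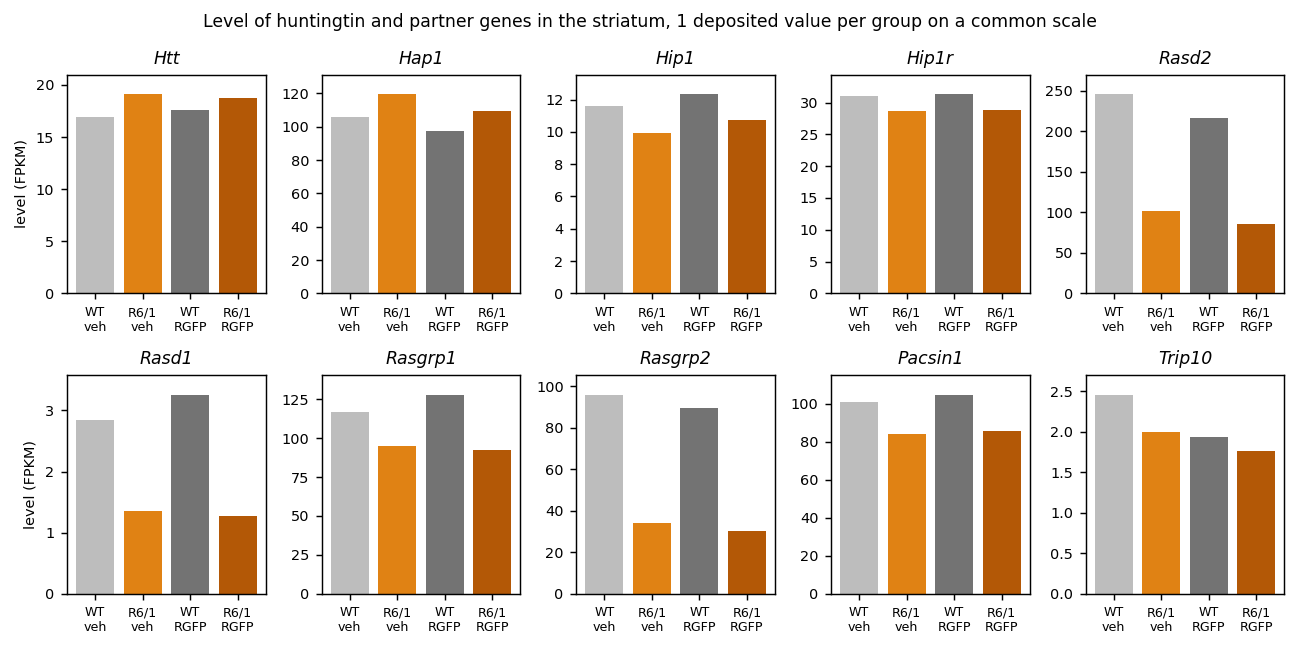
Bars show the level in FPKM (vertical axes, each starting at 0) of the 10 genes in the WT-vehicle, R6/1-vehicle, WT-RGFP109 and R6/1-RGFP109 groups, 1 deposited value per group on a common scale with no error bar. As a ratio, Rasd2, Rasd1 and Rasgrp2 stood lower in R6/1 than in wild type mice by more than the other genes, with Rasd2 at 246 and 217 FPKM in wild type and 101 and 85.6 FPKM in R6/1 mice.

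The first comparison asked how striatal RNA differs between R6/1 and wild type mice without drug. In vehicle mice 3 of the 10 genes were past the fold, and all 3 were lower in R6/1 mice, while 10.2% of 13659 genes with a mean of at least 1 FPKM were past it in that direction. The 3 were the striatum-enriched G protein Rasd2, its relative Rasd1 and the Rap exchange factor Rasgrp2. None of the 10 was past it in the higher direction, against 3.84% of all genes. The median log2 ratio of the 10 genes was -0.28, beside -0.0067 for all genes. In bulk tissue, fewer cells of a type and less RNA per cell cannot be told apart. In the same comparison markers of striatal projection neurons had a median log2 ratio of -1.31, and the part of this in the values of the 10 genes was not tested.

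Rasd2 (chr8:75213944-75224113) stood at 246 FPKM in WT-vehicle and 217 FPKM in WT-RGFP109 mice, and at 101 FPKM in R6/1-vehicle and 85.6 FPKM in R6/1-RGFP109 mice. Both R6/1 groups were thus below both wild type groups. The log2 ratio of R6/1 to wild type was -1.28 in vehicle mice (0.413 times the wild type value) and -1.34 in RGFP109 mice (0.395 times). Of all genes, 1.75% had a lower ratio in vehicle mice. With this difference the rank of Rasd2 went from 229 in WT-vehicle to 722 in R6/1-vehicle mice. Of the 3096 windows of 51 bases (the read length) in its GENCODE transcripts, 10 also occur in other genes.

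Rasd1, a G protein first described as induced by dexamethasone, was measured at 2.85, 1.35, 3.26 and 1.27 FPKM in WT-vehicle, R6/1-vehicle, WT-RGFP109 and R6/1-RGFP109 mice. Its log2 ratio of R6/1 to wild type was -1.02 in vehicle and -1.30 in RGFP109 mice, so its direction was that of Rasd2 at a far lower level. Its level is low enough that the added constant matters, and with 1 FPKM added the values were -0.71 and -0.91. Rasd2 was 86.3 times as abundant as Rasd1 in WT-vehicle mice and 74.8, 66.7 and 67.6 times in the R6/1-vehicle, WT-RGFP109 and R6/1-RGFP109 groups. The deposited locus of Rasd1, chr11:59948214-59964942, is shared with Med9, a Mediator subunit, whose RefSeq model overlaps the end of Rasd1 by 126 bases on the opposite strand, 7.14% of the 1764 bases of the Rasd1 gene. Reads in the overlap cannot be told apart without strand, which the sources used here do not state. Med9 stood at 22.3, 19.2, 22.0 and 19.0 FPKM, with genotype log2 ratios of -0.21 in both vehicle and RGFP109 mice. The Med9 levels are far above those of Rasd1, so even a short overlap could hold a large part of the Rasd1 value. The Med9 ratios were smaller in size than the -1.02 and -1.30 of Rasd1. Of the 1561 read-length windows in the GENCODE transcript of Rasd1, 0 also occur in other GENCODE genes. The overlap, however, is with the RefSeq model of Med9, and the reads were aligned to RefSeq. The part of the Rasd1 value that comes from the overlap was not tested, and the Rasd1 levels and ratios carry this limit.

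Rasgrp2 (chr19:6400583-6415216) showed the lowest genotype ratio of the 10 genes. Its level was 95.9 FPKM in WT-vehicle, 33.9 FPKM in R6/1-vehicle, 89.7 FPKM in WT-RGFP109 and 30.3 FPKM in R6/1-RGFP109 mice. The R6/1 values were a similar share of their wild type counterparts in both pairs, with log2 ratios of -1.50 in vehicle mice and -1.56 in RGFP109 mice (0.354 and 0.339 times). Only 1.26% of all genes had a lower ratio in vehicle mice and 1.16% in RGFP109 mice.

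Rasgrp1 (chr2:117279993-117342877), which acts on Ras and is also known for its role in lymphocytes, did not pass the fold. It stood at 117, 94.8, 128 and 92.5 FPKM in WT-vehicle, R6/1-vehicle, WT-RGFP109 and R6/1-RGFP109 mice, with genotype log2 ratios of -0.30 and -0.47. The pair of exchange factors therefore shifted in proportion. Rasgrp1 was 1.22 times Rasgrp2 in WT-vehicle and 1.43 times in WT-RGFP109 mice, but 2.79 times in R6/1-vehicle and 3.05 times in R6/1-RGFP109 mice.

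Htt itself was slightly higher in the R6/1 groups. Its level was 16.9 FPKM in WT-vehicle, 19.1 FPKM in R6/1-vehicle, 17.6 FPKM in WT-RGFP109 and 18.8 FPKM in R6/1-RGFP109 mice. The genotype log2 ratios of 0.17 and 0.096 lie well inside the middle 95% of all genes, which ran from -1.08 to 0.61 in vehicle mice and from -0.99 to 0.59 in RGFP109 mice. The ratio of Rasd2 to Htt was 14.5 in WT-vehicle and 5.31 in R6/1-vehicle mice.

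Hap1 (chr11:100347327-100356141) was the other gene with higher values in R6/1 mice, at 106, 119, 97.3 and 109 FPKM in WT-vehicle, R6/1-vehicle, WT-RGFP109 and R6/1-RGFP109. Its genotype log2 ratio was 0.17 in vehicle and 0.17 in RGFP109 mice. Hap1 was 6.24 times as abundant as Htt in WT-vehicle and 6.25 times in R6/1-vehicle mice, and 5.54 and 5.81 times in WT-RGFP109 and R6/1-RGFP109 mice, so the proportion of the pair differed little by genotype.

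The clathrin adaptors differed little. Hip1 (chr5:135406519-135545122) stood at 11.6, 9.94, 12.3 and 10.7 FPKM in the 4 groups, with genotype log2 ratios of -0.22 and -0.20. Hip1r (chr5:123973628-124003215) stood at 31.1, 28.6, 31.3 and 28.8 FPKM, with -0.12 in both vehicle and RGFP109 mice. The Hip1r to Hip1 ratio stayed between 2.54 and 2.88 over the groups. The GENCODE model of Hip1r runs 2343 bases past the deposited locus, and 0 of the 4342 windows of 51 bases inside the locus are found in another gene.

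The F-BAR genes were also below wild type by less than the fold. Pacsin1 (chr17:27655591-27711117), which is neuronal and binds huntingtin, stood at 101, 84.1, 105 and 85.7 FPKM in the 4 groups, with genotype log2 ratios of -0.27 and -0.29. Trip10 (chr17:57249451-57263697), a Cdc42 effector, stood at 2.46, 1.99, 1.93 and 1.76 FPKM, with genotype log2 ratios of -0.29 and -0.13. The R6/1-vehicle value of Trip10 was above the WT-RGFP109 value, so its R6/1 and wild type values overlapped.

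The second comparison repeated the genotype contrast in RGFP109 mice. The same 3 genes, Rasd2, Rasd1 and Rasgrp2, were past the fold and lower in R6/1 mice, where 8.58% of 13651 genes were, and 0 were past it in the higher direction, where 3.46% of genes were. In both genotype comparisons 6.31% of 13717 genes were past the fold and lower, among them these 3 of the 10. All 10 had the same sign in both, as had 81.9% of all genes. The genotype log2 ratio in RGFP109 mice minus that in vehicle mice ran from -0.28 (Rasd1) to 0.16 (Trip10), with Rasgrp1 at -0.16 and the other 7 between -0.075 and 0.024, where the median absolute difference over all genes was 0.087. In absolute size 87.2% of genes had a smaller difference than Rasd1, and 73.6% and 73.1% had a smaller one than Rasgrp1 and Trip10.

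**Figure D2:**
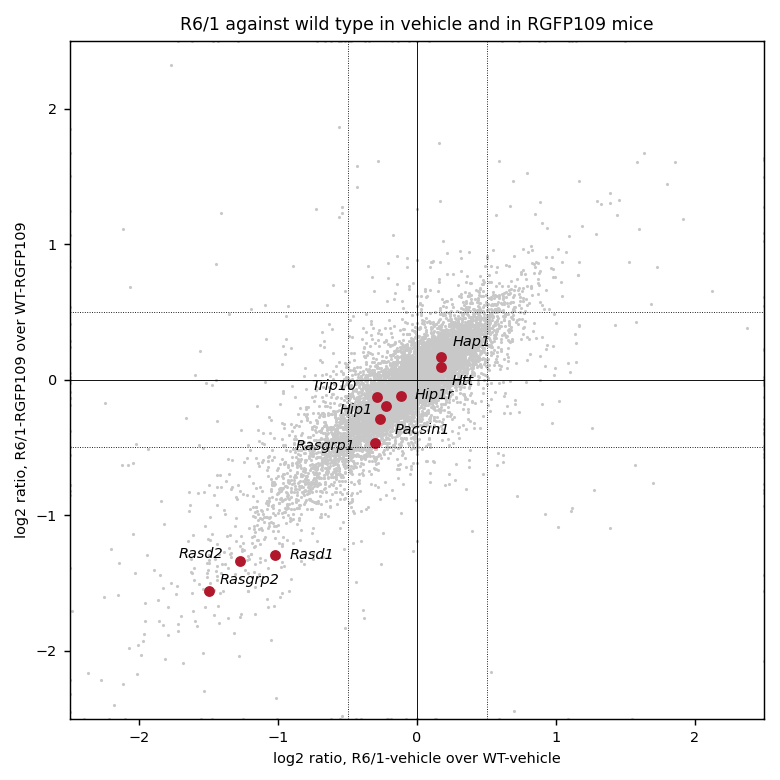
Each point is a gene, with its log2 ratio of R6/1 to wild type in vehicle mice (horizontal axis) and in RGFP109 mice (vertical axis), which share no mice. Red points are the 10 genes and grey points all genes with at least 1 FPKM, with values beyond the axes drawn at the edge and dotted lines at -0.5 and 0.5. Rasgrp2, Rasd2 and Rasd1 lie at the lower left and the other 7 lie inside the dotted lines.

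The third comparison asked how these genes differed with RGFP109 within a genotype. In R6/1 mice 0 of the 10 genes were past the fold, while 2.96% of 13610 genes were, and in wild type mice 0 of 10 were, while 3.82% of 13621 genes were. The median log2 ratio of RGFP109 to vehicle was -0.063 in R6/1 and 0.031 in wild type mice. With 1 value per group a difference of this size cannot be set against the spread between mice.

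Of the 10 genes Rasd2 had the log2 ratio furthest from 0 in R6/1 mice, -0.24 (0.844 times), and 3.40% of all genes had a lower one. In wild type mice its log2 ratio was -0.18. The value for Rasd2 in treated R6/1 mice was thus further from wild type than in vehicle mice, and against WT-vehicle the log2 ratio was -1.52. Rasgrp2 had -0.16 in R6/1 and -0.096 in wild type mice, and -1.66 in R6/1-RGFP109 against WT-vehicle. Such values were not particular to these genes. Over 10 striatal projection neuron markers the median log2 ratio of RGFP109 to vehicle was -0.13 in R6/1 mice, with a range from -0.25 to -0.031. In wild type mice the median of these markers was -0.10, with a range from -0.19 to 0.26.

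Trip10 had the lowest log2 ratio in wild type mice, -0.33, and -0.17 in R6/1 mice, at levels under 2.5 FPKM. Hap1 had lower values after RGFP109 in both genotypes, with -0.13 in R6/1 and -0.12 in wild type mice, and against WT-vehicle its R6/1-RGFP109 value was 0.046. Hip1 was higher in both, with 0.11 and 0.086. Htt had -0.025 and 0.053, Pacsin1 0.025 and 0.052, and Hip1r 0.0084 and 0.0096.

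The genes with opposite signs in the genotypes were Rasd1 (-0.089 in R6/1 and 0.19 in wild type), Rasgrp1 (-0.037 and 0.13) and Htt. The other 7 of 10 had the same sign, beside 49.5% of all genes. In R6/1-RGFP109 against WT-vehicle mice 3 of the 10 genes were past the fold and lower, Rasd2, Rasd1 (-1.11) and Rasgrp2, where 10% of 13653 genes were. In the remaining pair, R6/1-vehicle against WT-RGFP109, the 3 were again past the fold and lower, where 8.74% of 13646 genes were. Both pairs share their groups with the comparisons above and are not separate measurements.

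**Figure D3:**
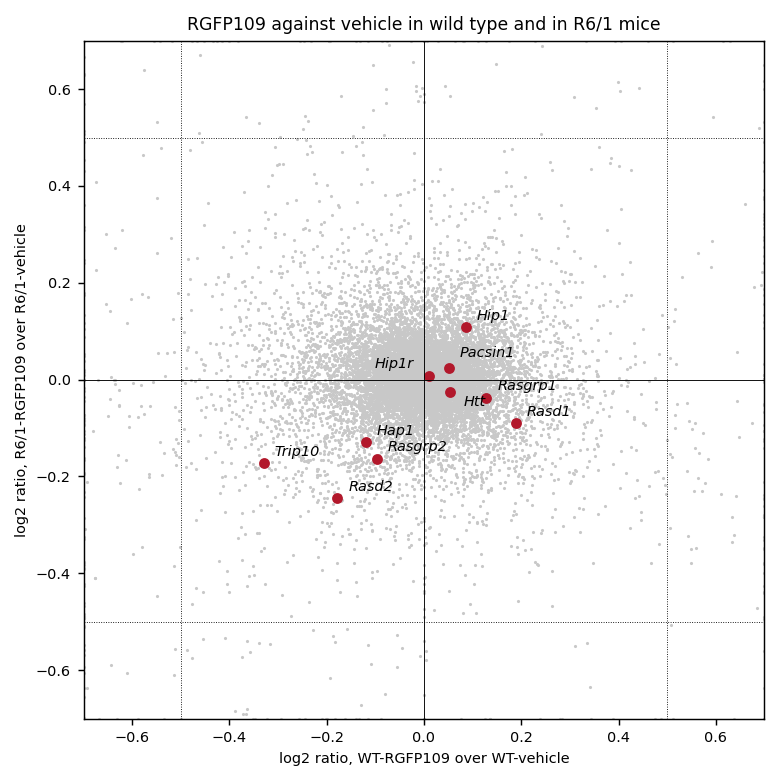
Each point is a gene, with its log2 ratio of RGFP109 to vehicle in wild type mice (horizontal axis) and in R6/1 mice (vertical axis), which share no mice. Red points are the 10 genes, grey points all genes with at least 1 FPKM, drawn at the edge when beyond the axes, and dotted lines mark -0.5 and 0.5. All 10 lie inside the dotted lines, with Trip10 furthest left at -0.33 and Rasd2 lowest at -0.24.

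Relatives and partners outside the 10 genes were taken from 4 lists. Their counts stand beside the shares of all genes given above, 10.2% lower and 3.84% higher in vehicle mice and 8.58% lower in RGFP109 mice, and with so few genes a list is described only by its count and median. Of 27 huntingtin and Hap1 interactors at or above 1 FPKM (28 listed), 4 were past the fold and lower in R6/1-vehicle mice and 0 were higher, with a median of -0.018. They were Kalrn, which binds Hap1 (62.1 to 32.7 FPKM, log2 ratio -0.93), the calcium release channel Itpr1 (115 to 64.4 FPKM, -0.83), the postsynaptic scaffold Dlg4 (307 to 197 FPKM, -0.64) and the endophilin Sh3gl3 (43.8 to 30.1 FPKM, -0.54). In RGFP109 mice the first 3 remained past the fold, with -0.75, -0.78 and -0.53, and Sh3gl3 had -0.35.

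Of 23 endocytic genes 1 was past the fold in vehicle mice, Pacsin3, the muscle-enriched relative of Pacsin1 (21.1 to 13.5 FPKM, -0.64), and the median was -0.075. Pacsin2 had -0.22 there and -0.50 in RGFP109 mice, where it was the 1 gene of the list past the fold, at its very edge. The lipid phosphatase Synj1 had 0.29 and 0.15, and the amphiphysin relative Bin1 had -0.27 and -0.055.

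Of 19 Ras and Rap switch genes 5 were past the fold and lower in vehicle mice and 1, the Ras exchange factor Sos1 (5.51 to 7.94 FPKM, 0.52), was higher, with a median of -0.037. The lower ones were Hras (93.4 to 54.6 FPKM, -0.77), the Rap inactivator Rap1gap (185 to 117 FPKM, -0.66), the Rap exchange factor Rapgef4 (243 to 161 FPKM, -0.60), Rasgrp4 (1.48 to 0.951 FPKM, -0.59) and the Ras inactivator Rasal1 (36.5 to 25.7 FPKM, -0.51). In RGFP109 mice 3 were past the fold and lower, namely Rasgrf2 (-0.95), Rap1gap (-0.65) and Hras (-0.63), and Rapgef4 had -0.17. Rasgrf2, a calcium-responsive Ras exchange factor, had -0.36 in vehicle mice and 0.54 for RGFP109 in wild type mice. Sos1, Rasal1 and Rasgrf2 were named after their values were seen.

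Of 9 measured F-BAR and Cdc42 genes (10 listed), 1 was past the fold in either genotype comparison, Fcho1, which acts early in clathrin pits (49.9 to 28.5 FPKM, -0.81 in vehicle and -0.74 in RGFP109 mice). The median was -0.21 in both, with Fnbp1, a close relative of Trip10, at -0.46 and -0.27, the F-BAR gene Gas7 at -0.38 and -0.33 and the actin regulator Wasf1 at -0.23 and -0.21. Under RGFP109, 0 genes of the 4 lists were past the fold in R6/1 mice, where 2.96% of all genes were. In wild type mice 1 was, Rasgrf2, where 3.82% of all genes were.

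Markers show which cell types gave RNA to the tissue, but their levels do not measure how many cells of each type it held. The labelled tissue carried the striatal projection neuron markers in every group, with all 10 above 1 FPKM. Their summed level was 3306 and 3180 FPKM in the WT-vehicle and WT-RGFP109 groups and 1292 and 1160 FPKM in the R6/1-vehicle and R6/1-RGFP109 groups, and 8 of 10 were past the fold and lower in vehicle and 9 of 10 in RGFP109 mice. The median log2 ratio of the list was -1.31 and -1.34. Against these markers, 5 of 10 had a lower ratio than Rasd2 in both comparisons, 4 and 2 of 10 had a lower ratio than Rasgrp2, and 9 of 10 had a lower ratio than Rasgrp1 in both.

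Lists for other cells also moved with the groups, and their part in the results for the 10 genes was not tested. Summed over 8 neocortex markers the level was 434, 250, 403 and 307 FPKM in WT-vehicle, R6/1-vehicle, WT-RGFP109 and R6/1-RGFP109 mice, with 7 of 8 past the fold and lower in the first genotype comparison and 1 of 8 in the second. Over 6 interneuron markers it was 953, 505, 926 and 498 FPKM, with 5 and 6 of 6 lower. Th made the difference between these counts, with genotype log2 ratios of -0.029 in vehicle and -1.26 in RGFP109 mice. Its log2 ratio of RGFP109 to vehicle was 1.02 in wild type and -0.21 in R6/1 mice. Over 8 choroid plexus markers it was 42.0, 24.1, 16.0 and 9.41 FPKM, with 7 of 8 past the fold and lower in the genotype comparison of vehicle mice and 2 of 3 at or above 1 FPKM in that of RGFP109 mice. With RGFP109 all 8 choroid plexus markers were past the fold and lower in wild type mice, as were all 4 at or above 1 FPKM in R6/1 mice, and 3 of 8 neocortex markers were past it and higher in R6/1 mice (median 0.43) and 0 in wild type mice (median -0.17).

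Over 6 oligodendrocyte markers the sum was 1714, 1046, 1371 and 1146 FPKM in the same groups, with 4 of 6 lower in vehicle and 0 of 6 in RGFP109 mice. Over 6 astrocyte markers it was 641, 449, 648 and 447 FPKM, over 6 microglia markers 216, 185, 211 and 181 FPKM, and over 5 endothelial markers 31.4, 22.8, 27.7 and 21.4 FPKM. No marker of any list was at 0 in a group. The log2 genotype ratios of the sums in vehicle and RGFP109 mice were -1.36 and -1.45 for projection neurons, -0.79 and -0.39 for neocortex, -0.71 and -0.26 for oligodendrocytes, -0.92 and -0.90 for interneurons, -0.80 and -0.76 for choroid plexus, -0.51 and -0.54 for astrocytes, -0.22 and -0.23 for microglia and -0.46 and -0.37 for endothelium. A sum follows its most abundant genes, and the medians of the lists differed from it. In the same 2 comparisons they were -0.71 and -0.14 for neocortex, -0.65 and -0.12 for oligodendrocytes and -0.89 and -1.06 for interneurons. They were -0.36 and -0.43 for astrocytes, -0.22 and -0.24 for microglia and -0.30 and -0.22 for endothelium. For choroid plexus they were -1.09 over 8 genes and -0.99 over only the 3 genes at or above 1 FPKM in the second comparison.

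**Figure D4:**
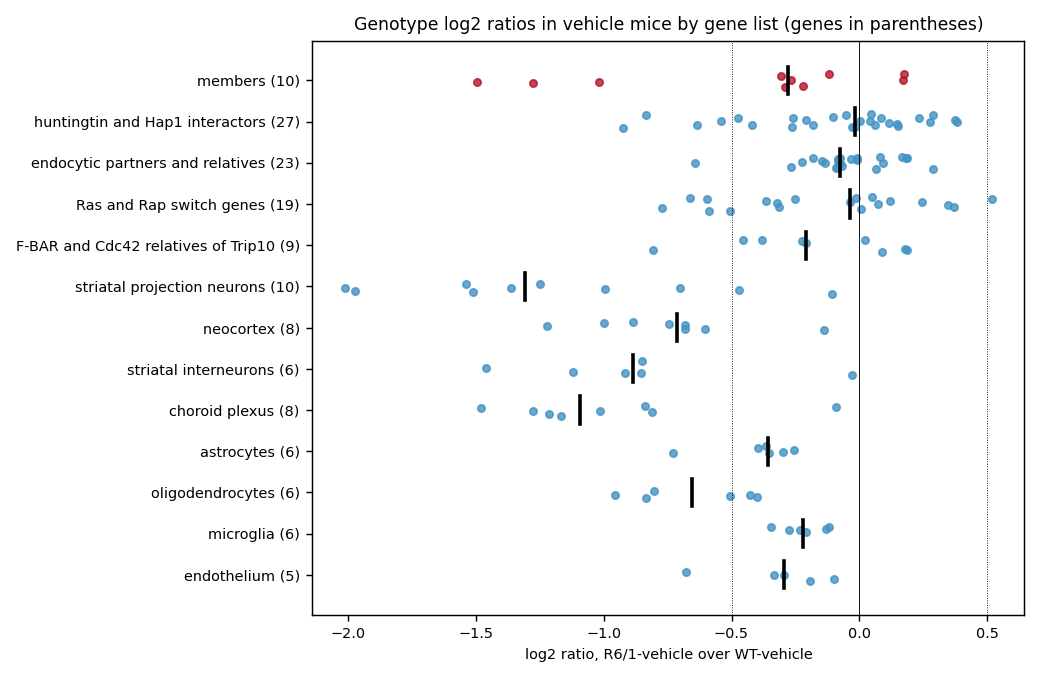
Each point is a gene, with its log2 ratio of R6/1-vehicle to WT-vehicle on the horizontal axis, in rows for the 10 genes (red), the 4 lists of relatives and the 8 cell type marker lists, with the number of genes at or above 1 FPKM in parentheses. Black bars are medians, vertical jitter has no meaning and dotted lines mark -0.5 and 0.5. The median was -0.28 for the 10 genes, between -0.21 and -0.018 for the 4 lists and -1.31 for striatal projection neuron markers.

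For the 3 genes past the fold in both genotype comparisons, the genes with the most similar pattern over the 4 groups were sought among 7471 genes (7472 for Rasd1) with a mean of at least 10 FPKM. Likeness was the root mean square difference of log2 levels after subtraction of each gene's mean, over 4 values. Nearest to Rasd2 were the dopamine receptor Drd2 (0.0099), which went from 97.7 to 41.0 FPKM in vehicle mice, Ppp1r1b (0.044), which encodes a protein that relays dopamine signals, and Pradc1 (0.045). Nearest to Rasgrp2 were Rgs9 (0.024), which went from 211 to 72.5 FPKM, Hrk (0.047) and the GABA receptor subunit Gabrd (0.050). Nearest to Rasd1 were the hemoglobin gene Hba-a2 (0.045), the dopamine receptor Drd1 (0.071) and the clock gene Ciart (0.072), with Hba-a2 at 24.6, 12.4, 28.1 and 10.7 FPKM. Drd2, Ppp1r1b, Drd1 and Rgs9 are also on the projection neuron list above. The 3 genes were chosen by their genotype ratios, which also enter the likeness, so this overlap is a description only.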

How the data were processed

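Striatal RNA libraries (TruSeq, single reads of 51 bases, 2 sequencing pools) were aligned by the authors with STAR 2.5.0b to the RefSeq transcriptome of mm10 and compared in pairs with Cufflinks and Cuffdiff 2.2.1. The deposited values used are FPKM, 1 pooled value per group in each of 6 tables, and values per library that accompany the study were not used. The columns of fold change, test statistic, p-value and q-value in the same tables hold the comparisons of the authors and were not used. Depth per library is unknown, and pool membership could not be related to a pooled value.

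The 24340 genes present in all tables were kept. The log2 ratio of 2 groups of 1 table was computed after adding 0.1 FPKM, and the background comprised genes with a mean of at least 1 FPKM. Levels were set on a common scale by 1 factor per table from the median log2 difference. Windows of 51 bases were compared between genes of GENCODE M21. The 10 genes and all lists were chosen with earlier results of these data known. All 10 genes were named, of each list of relatives at most 4 genes with the largest ratio in vehicle mice (Sos1, Rasal1 and Rasgrf2 were added after their values were seen), and 3 similar genes for each gene past the fold in both genotype comparisons. Calculations were tested on simulated data and used Python 3.11.15, numpy 2.4.6 and pandas 2.3.3. Alternatives were the fold, the added constant, the scaling, the table and the filter.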

Additional observations from a re-analysis of the deposited data

How the results depend on the processing

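The count of genes past the fold was recomputed 48 times and moved by over 1.5 times in 3 cases, all at a fold of 0.3. It became 1 (Trip10, from 0) for WT-RGFP109 against WT-vehicle, 5 for R6/1-RGFP109 against WT-vehicle and 6 for R6/1-vehicle against WT-RGFP109 (from 3 each), where 7.68%, 29.8% and 26% of all genes were past that fold. In R6/1-vehicle against WT-vehicle 4 of the 10 genes were past a fold of 0.3 and 3 past a fold of 1, where 30.5% and 4.12% of all genes were. At 0.5 it was 3 of the 10, beside 14% of all genes. The shares of all genes in this paragraph count both directions. A minimum mean of 10 FPKM left 8 of the 10 genes. Rasd2 and Rasgrp2 were then past the fold in every comparison of R6/1 with wild type mice, where 9.29% to 11.5% of all genes were. For RGFP109 against vehicle 0 of the 8 were past it, where 2.57% of all genes were in R6/1 and 2.89% in wild type mice. Of 280 single values 5 moved by 0.1 or more, all 5 with 1 FPKM added. None of the values past the fold changed sign, and 2 of the 280 did, both the near-zero difference of the genotype log2 ratios of Hip1r (0.00015, then -0.017 when centred on all genes and -0.0014 from the other tables). The 5 were 4 of Rasd1 (-0.71, -0.91, -0.76 and -0.86) and Trip10 in R6/1-RGFP109 against WT-vehicle (-0.32). Of 24 medians 0 moved.

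No paired analysis was possible because the deposited tables hold 1 pooled value per group, and leaving out single libraries was not run for the same reason. Values per library that accompany the study were not used here. Protein identity between relatives was not computed. Working from pooled values limits every comparison, since no spread between mice was computed.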
